A study of Mus musculus with 2 samples.

Results

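The genes of the neuromuscular junction described here are 10 members of the muscle side of the synapse and its cleft: the acetylcholine receptor subunits Chrna1, Chrnb1, Chrnd, Chrne and Chrng, the receptor-clustering genes Musk, Lrp4 and Rapsn, and the cleft enzyme genes Ache and Colq. They were chosen by name, and are 10 of the 35163 genes in the table. All cells came from a small toe-flexing muscle of the foot, the FDB (flexor digitorum brevis), of 1 untreated C57BL/6J mouse older than 3 months. The authors describe the mice of their study as adult males, of the C57BL/6J and DBA2 backgrounds. Single myofibers were sorted into plates after collagenase digestion, some from whole dissected muscle and some as fragments from a cut piece that mimicked a biopsy, and were sequenced by mcSCRB-seq, which counts molecules by their unique molecular identifiers (UMIs). Of 763 cells, 171 had more than 5000 genes and less than 20% mitochondrial counts, among them 168 whole myofibers and 3 fragments.

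In GRCm38 with strand, the receptor genes lie as Chrna1 at chr2:73563215-73580338 (minus), Chrnb1 at chr11:69784036-69795943 (minus), Chrnd at chr1:87190607-87200070 (plus), Chrne at chr11:70614883-70619216 (minus) and Chrng at chr1:87204657-87212694 (plus). The clustering genes lie as Musk at chr4:58285960-58374303 (plus), Lrp4 at chr2:91457511-91513779 (plus) and Rapsn at chr2:91035620-91045729 (plus), and the cleft genes as Ache at chr5:137287519-137294466 (plus) and Colq at chr14:31523082-31591343 (minus).

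Each myofiber of an adult muscle carries 1 junction, where a motor axon releases acetylcholine onto a patch of receptors. The adult receptor is a pentamer built from alpha, beta, delta and epsilon subunits, encoded by Chrna1, Chrnb1, Chrnd and Chrne, and the fetal receptor carries the gamma subunit, encoded by Chrng, in place of epsilon. Agrin from the nerve binds LRP4 and thereby activates the kinase MuSK, and rapsyn anchors the receptors beneath it. Acetylcholinesterase, encoded by Ache, ends the signal and is tethered in the cleft by the collagen-like tail ColQ. Nuclei beneath the junction are known to transcribe many of these genes more than the other nuclei of the fiber, and a whole-fiber library holds the RNA of both.

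The promoters of 4 members are shown because they differ in 2 elements by which these genes are known to be controlled: the N-box, searched as CCGGAA on both strands, which GABP factors bind at junctional nuclei, and the E-box, searched as CANNTG, which reads the same on both strands and is bound by MyoD-family factors. The letters are the 150 bases from 180 to 31 bases before the RefSeq start in GRCm38.p6, 5′ to 3′, with both motifs in capitals.
Chrne: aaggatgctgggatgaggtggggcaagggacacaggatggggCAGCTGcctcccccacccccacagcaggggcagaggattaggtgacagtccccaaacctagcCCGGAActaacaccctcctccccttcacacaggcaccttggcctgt
Chrng: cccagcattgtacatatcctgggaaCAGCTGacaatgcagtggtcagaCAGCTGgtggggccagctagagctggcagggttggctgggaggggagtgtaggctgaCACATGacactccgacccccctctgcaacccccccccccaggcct
Chrna1: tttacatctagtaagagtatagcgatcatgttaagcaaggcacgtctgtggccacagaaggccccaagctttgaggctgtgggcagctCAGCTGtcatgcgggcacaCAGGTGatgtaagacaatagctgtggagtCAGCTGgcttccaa
Musk: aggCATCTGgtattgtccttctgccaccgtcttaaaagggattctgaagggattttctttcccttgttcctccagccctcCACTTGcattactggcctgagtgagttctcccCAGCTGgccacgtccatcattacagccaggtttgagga
These stretches lie at chr11:70619225-70619374 (minus strand), chr1:87205631-87205780 (plus strand), chr2:73580369-73580518 (minus strand) and chr4:58285782-58285931 (plus strand), and none of their bases is in a GENCODE exon of the gene. The Chrng stretch lies within the GENCODE span of that gene, in an intron, because RefSeq starts the gene further downstream. RefSeq promoters were matched for 6 of the 10 members, these 4 with Chrnb1 and Ache. Among them the N-box was found only before Chrne, at bases 76 to 71 before the start, in a window of 250 bases. That window held an N-box in 12.03% of 32851 promoters and an E-box in 66.22%. Chrne and Ache had 1 E-box each, at bases 138 and 199, whereas Chrng, Chrna1, Musk and Chrnb1 had 3 each. The N-box and E-boxes did not overlap.

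The 171 cells held 51923865 UMI counts, and single cells had between 28827 and 1542996, the median cell 239581. By the largest of Myh1, Myh2, Myh4, Myh7 and Myh8, the cells were 117 fast 2X, 51 fast 2A, 1 fast 2B and 2 slow. The cells carried 8 index labels, 705 to 712, each called a plate here although the labels do not name plates. They were sequenced on 2 lanes, which held 88 and 83 of the kept cells and shared no full barcode. The kept cells of labels 705 to 708 were those of lane 1, and those of labels 709 to 712 were those of lane 2. As all cells belong to 1 mouse, they are not replicates, so no test between cells was made and all limits are exact 95% limits that cover counting error only. Markers of other cell types were also present. The 11 Schwann cell genes together had a median of 40.5 CPM (counts scaled to 1000000 per cell) and a highest value of 4927 CPM. The 9 axon genes in the table had a median of 27.1 and a highest value of 263 CPM. These values were 102 and 1491 CPM for the 6 endothelial genes, and 151 and 439 CPM for the 5 satellite cell genes in the table. The smooth muscle, fibroblast and macrophage lists had medians of 22.3, 19.8 and 12.3 CPM. Single endothelial genes were counted in 16 cells (Cldn5) to 164 cells (Tek). The satellite cell sum rested mostly on Itga7, which held 126 of the list's 145 summed CPM and was counted in all 171 cells. Pax7, Vcam1, Myf5 and Calcr had from 2.75 to 7.74 CPM. Spearman correlations with the summed members over the 171 cells were 0.02 for Schwann cell, -0.12 for axon, 0.01 for endothelial and 0.26 for satellite cell genes.

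Of the 10 members, 9 were found in most myofibers, and Chrng was the exception. Chrna1, the subunit that carries most of the acetylcholine binding site, was counted in 170 of 171 cells, with 7739 UMIs in all. Chrnb1 was counted in 160 cells, Chrne in 163 and Chrnd in 126, the lowest number among the adult subunits. Of the clustering genes, Musk was found in 169 cells, Lrp4 in 163 and Rapsn in 160. Colq and Ache, the cleft genes, were found in 153 and 150 cells. The median over these 9 genes was 160 cells, compared with 122 over the 15813 genes with at least 100 summed counts. The 9 genes had from 738 to 8313 counts, so these medians are not matched in counts. No cell of another type was in the table to give a background share.

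The summed levels differed widely between members. Musk was highest at 160 CPM (limits 157 to 164), followed by Chrna1 at 149 CPM (146 to 152). Chrnb1 reached 62.6 CPM and Chrne 51.2 CPM, with Lrp4 at 35.4, Rapsn at 32.6, Colq at 31.1, Ache at 26.8 and Chrnd at 14.2 CPM. Chrng stood at 0.520 CPM (0.343 to 0.757). Per kilobase of exon the order was Musk at 42.4, Chrna1 at 34.0, Chrne at 30.3, Chrnb1 at 24.7, Rapsn at 18.1, Colq at 8.17, Ache at 5.80, Chrnd at 4.32, Lrp4 at 3.37 and Chrng at 0.125 CPM per kilobase. Lrp4, whose exons span 10.504 kilobases, stood above Rapsn, Colq, Ache and Chrnd by CPM and below them per kilobase. Among the 4 adult subunits Chrnd had the fewest counts, 5.13% of their total, against 53.8% for Chrna1, 22.6% for Chrnb1 and 18.5% for Chrne, and per kilobase Chrne stood 7.01-fold and Chrna1 7.86-fold above Chrnd. Because mcSCRB-seq counts each molecule once, from its 3′ end, a count does not grow with transcript length as read counts do, and both scales are given.

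Within single cells, Musk ranged from 0 to 381 CPM around a median of 139.5 CPM, and Chrna1 from 0 to 459.6 CPM around 138 CPM. Chrne ranged from 0 to 139.9 CPM around a median of 45.7, and Chrnb1 from 0 to 242 around 51.3 CPM. The weaker members had more cells at 0, and Chrnd, with 45 such cells, ranged from 0 to 214 CPM around 9.79. Cells without a member were shallow: the 8 cells without Chrne had a median of 40684 counts, against 247888 in the others, and the 45 without Chrnd had 100629 against 292756. After thinning every cell to 28827 counts, the expected number of cells with a UMI was 160.4 for Chrna1 and 159.7 for Musk, but 118.7 for Chrne, 80.1 for Ache, 48.4 for Chrnd and 1.91 for Chrng. At the depth of the shallowest cell most members would therefore have been missed in many cells in which they were counted.

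All 9 members other than Chrng were counted together in 106 of the 171 cells. A further 33 cells held 8 of them, 15 cells held 7, 15 cells held 5 or 6, and 2 cells held fewer than 5, with a lowest number of 4. The 106 cells with all 9 had a median of 338676.5 counts and the others 89456. The full set of adult subunits, Chrna1, Chrnb1, Chrnd and Chrne, was found in 122 cells.

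**Figure D1:**
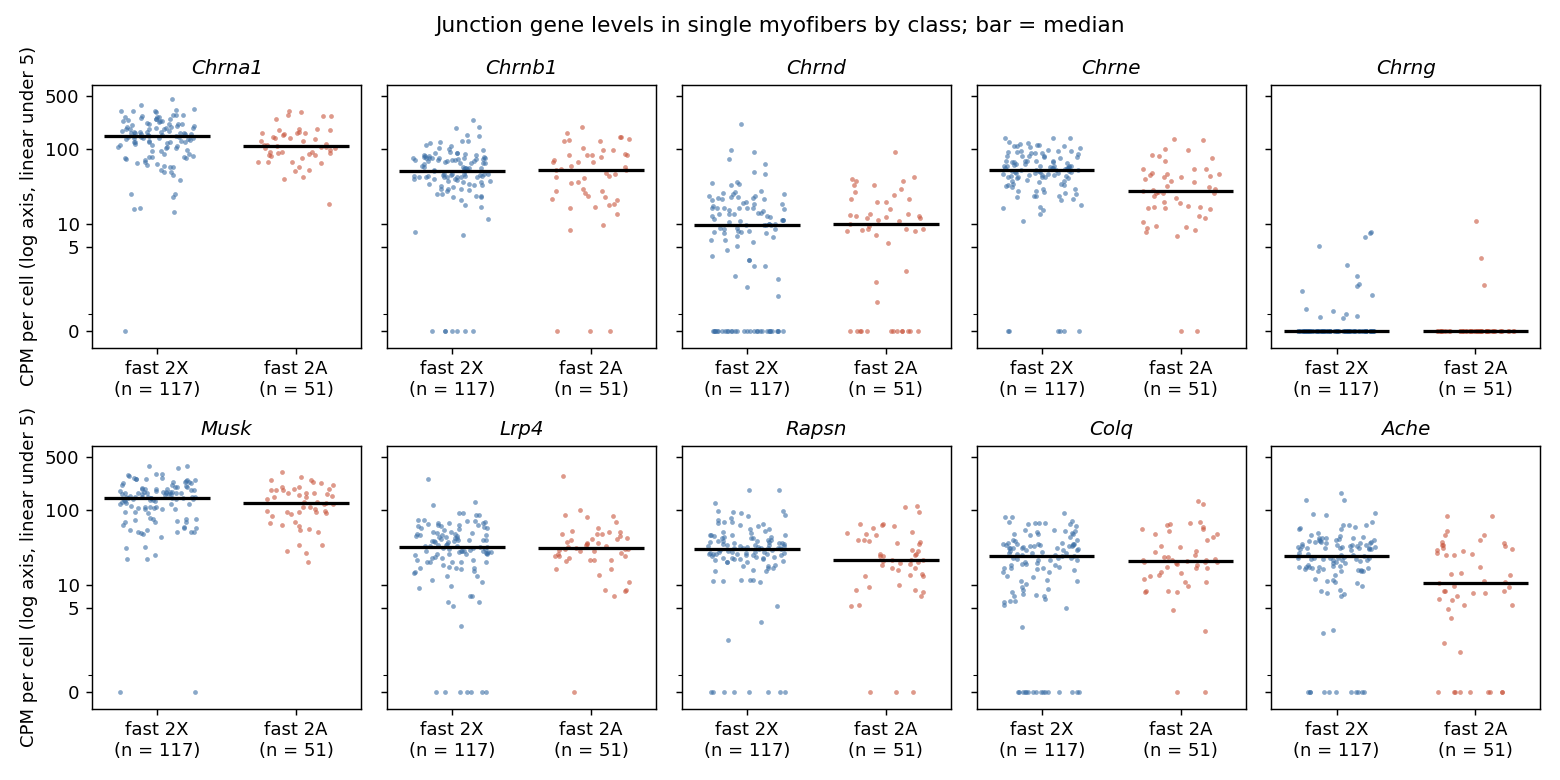
CPM of each junction gene in single fast 2X (117) and fast 2A (51) myofibers, on an axis that is logarithmic above 5 CPM and linear below; each point is a cell and the bar is the median. Chrna1 and Musk sit near 100 CPM with few cells at 0, Chrne and Ache have lower medians in fast 2A, and Chrng is at 0 in most cells of both classes.

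The members' spread between cells was like that of other genes with as many counts. Spread was measured as the coefficient of variation (CV) that remained after counting error and depth were taken out. It was 0.307 for Musk, 0.368 for Chrnb1, 0.377 for Rapsn, 0.391 for Chrna1, 0.414 for Chrne, 0.475 for Lrp4, 0.489 for Ache, 0.534 for Colq and 0.592 for Chrnd. All 9 lay below the median CV of the 15813 genes, 0.684, but the CV fell with the number of counts over all genes. Against genes with 0.5 to 2 times their own counts, 6 of 9 members lay below the median, and 4 of 9 in the cells of lane 2 alone. Rapsn was the most even on this scale, since 15.1% of 4470 like genes had a lower CV, and Chrna1 the least even, since 77.0% of 1443 like genes did. Chrne and Lrp4 were close to the middle at 47.4% and 50.8%.

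The index of dispersion, the chi-square of the counts over its degrees of freedom, ranked the members otherwise than the CV. It was 9.30 for Chrna1, 7.33 for Musk, 4.43 for Chrne and lowest for Ache at 3.59, where pure counting error gives a value of 1. The members' median was 4.43, and that of all genes was 4.22 with quartiles of 3.15 and 5.72. By this index 2 of 9 members lay below the median of all genes, where 9 of 9 did by the CV. Of these 9 genes none rested on a single cell, as the highest cell held 3.20% of Chrne counts, 3.93% of Chrna1 counts and at most 5.27%, in Colq. These cells also held 1.47% and 2.35% of all counts in the case of Chrne and Chrna1. Pmp22 and Mbp, genes of the Schwann cell, were spread otherwise at like counts. Pmp22, a myelin gene, had 1617 counts and a CV of 1.15, where Colq had 1614 counts and 0.534, and Mbp had 664 counts and a CV of 2.91, where Chrnd had 738 and 0.592.

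**Figure D2:**
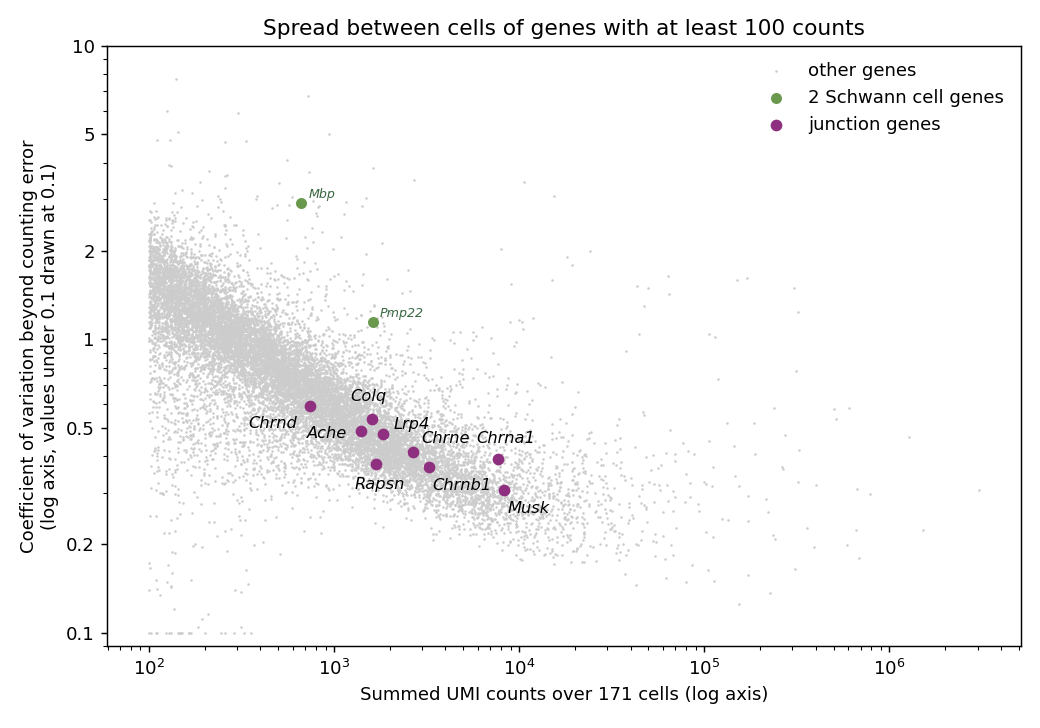
Coefficient of variation beyond counting error against summed UMI counts over 171 cells, both on log axes, for genes with at least 100 counts; values under 0.1 are drawn at 0.1. The 9 junction genes lie within the band of genes with like counts, between 0.307 and 0.592, while the Schwann cell genes Mbp and Pmp22 lie above it.

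Plates and lanes differed in level. Musk was 164 CPM on lane 1 and 157 CPM on lane 2, and Chrna1 was 145 and 153 CPM. Chrne was 44.2 and 57.7 CPM, Ache 22.2 and 31.1 CPM, and Lrp4 29.3 and 41.1 CPM. Colq was 28.5 and 33.5 CPM, and Chrnd 12.4 and 15.9 CPM. Chrne, Ache, Lrp4, Colq and Chrnd were each lower on lane 1 than on lane 2, with counting limits that did not overlap. Between the 8 plates, the highest summed CPM was 1.41 times the lowest for Rapsn and 3.06 times for Colq, and Chrne ranged from 36.1 to 79.3 CPM. Each lane was a group of plates, so a lane difference cannot be told apart from a difference between plate groups. The part that plate or lane had in these levels was not tested.

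Fast 2A and fast 2X myofibers differed most in Chrne, the adult subunit. Chrne was 32.1 CPM (28.9 to 35.5) summed over the fast 2A cells and 57.6 CPM (55.2 to 60.0) over the fast 2X cells, 1.79-fold higher in fast 2X. Ache was also lower in fast 2A, at 19.9 against 29.2 CPM, whereas Chrnd and Colq were nearly level between the classes. On the log2 scale of fast 2A over fast 2X the difference was -0.84 for Chrne (limits -1.004 to -0.69), -0.55 for Ache (-0.76 to -0.35), -0.31 for Chrna1 (-0.39 to -0.22) and -0.19 for Musk (-0.27 to -0.12). For 5 other members the limits held 0: Rapsn was at -0.16, Lrp4 at -0.13, Chrnb1 at -0.11, Colq at -0.02 and Chrnd at 0.03.

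Over all cells no member passed 2-fold, 0 of 9, where 1.23% of 15813 genes were at least 2-fold higher in fast 2A and 4.58% at least 2-fold lower. On lane 1 alone Chrne did, at -1.01, but the share of all genes past 2-fold on that lane is not given here. The members' median was -0.16 and that of all genes -0.12, so the members as a group lay near the typical gene. With TMM factors, which take out a shift of -0.11, Chrne stood at -0.73, Ache at -0.44, Chrna1 at -0.19 and Musk at -0.08, and Chrnb1 and Colq changed sign, to 0.004 and 0.10. A lower log2 difference than that of Chrne was found in 6.92% of the genes, and than that of Ache in 15.4%.

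The cells of the classes overlapped in every member. Chrne ranged from 0 through a median of 27.3 to 135.5 CPM in the 51 fast 2A cells, and from 0 through 52.1 to 139.9 CPM in the 117 fast 2X cells. Its quartiles were 16.6 and 46.7 CPM in fast 2A and 34.4 and 76.1 CPM in fast 2X, so that the upper quartile of fast 2A lay below the median of fast 2X. Both classes had a UMI of Chrne in most cells, 49 of 51 and 111 of 117, and after thinning to 28827 counts the expected shares were 57.8% and 74.8%. Ache ranged from 0 through 10.7 to 82.3 CPM in fast 2A and from 0 through 24.1 to 164 CPM in fast 2X, with expected shares after thinning of 35.8% and 52.2%. The means of per-cell CPM, which give every cell the same weight, were 37.1 and 56.1 CPM for Chrne and gave a log2 difference of -0.60. On this scale Chrnb1, Colq and Lrp4 stood at 0.04, 0.19 and 0.07 and Chrnd at -0.10, the opposite sign to their summed values.

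The lower Chrne was found on both lanes and on each plate that could be compared. Each lane is the sum of its plates, so lanes and plates are not separate checks. Its log2 difference was -1.01 (-1.25 to -0.78) on lane 1 and -0.62 (-0.84 to -0.41) on lane 2. Of the 8 plates, 7 held at least 3 cells of each class, and Chrne was lower in fast 2A on 7 of 7, from -1.45 to -0.25. Ache was lower on 6 of 7 plates, from -1.62 to 0.54, and Chrna1 on 4 of 7, from -1.25 to 0.21. The counting limits of Chrne held 0 on 2 of these plates. Colq turned with the lane, at 0.24 on lane 1 and -0.20 on lane 2, and Lrp4 likewise, at 0.07 and -0.18. Summed markers of the Schwann cell were 49.5 CPM in fast 2A and 59.9 CPM in fast 2X, and those of smooth muscle 26.2 and 50.2 CPM, and without the 10 cells with the most non-muscle markers Chrne was at -0.86.

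**Figure D3:**
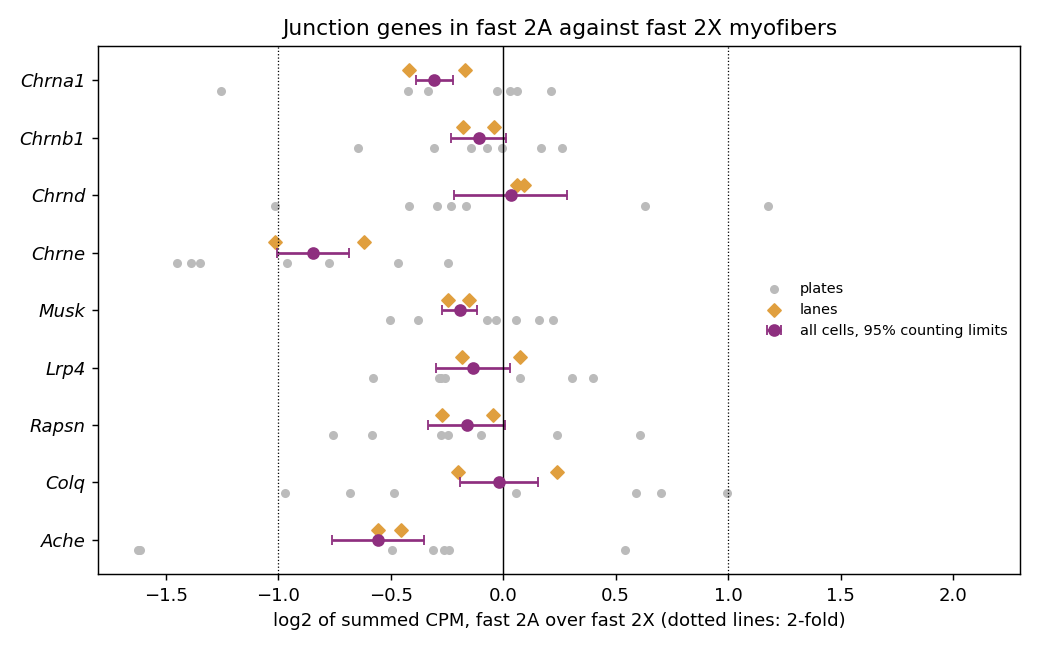
Log2 of summed CPM in fast 2A over fast 2X for 9 junction genes: circles with bars give all cells with 95% counting limits, diamonds the 2 lanes, and grey points the 7 plates on which both classes had 3 or more cells. Chrne lies left of 0 on every plate and both lanes, Ache on 6 plates, and the others spread to both sides of 0 between plates.

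Many cells carried both Myh1, the 2X myosin, and Myh2, the 2A myosin, so the fast 2X and fast 2A cells were also divided by the share of Myh2 in the counts of both genes. Chrne was 59.2 CPM (56.0 to 62.5) in the 48 cells with under 20% Myh2, 55.5 CPM (52.1 to 59.2) in the 69 cells with 20 to 50% and 32.1 CPM in the 51 cells with 50% or more. Chrna1 was already lower in the middle group, at 171, 137 and 126 CPM. Ache was 29.6, 28.7 and 19.9 CPM, in the same order, and Chrnd 14.7, 13.7 and 14.6 CPM. By summed CPM Chrne and Ache were close to level over the 2X side and lower where Myh2 led, whereas the median cell of Ache was 29.6, 23.1 and 10.7 CPM and so already lower in the middle group, and the Chrna1 difference lay largely within fast 2X.

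**Figure D4:**
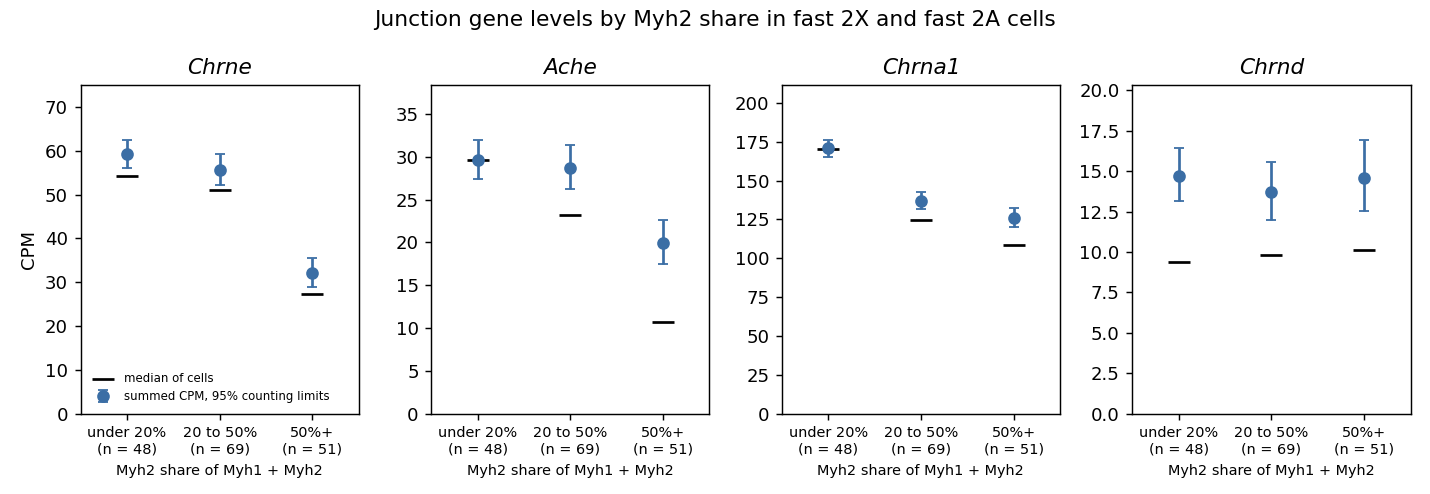
Level of 4 junction genes in the 48, 69 and 51 cells grouped by how much of the summed Myh1 and Myh2 counts was Myh2; points give summed CPM with exact Poisson 95% limits and bars the median of cells, on axes that start at 0. Chrne goes from 59.2 to 32.1 CPM and Ache from 29.6 to 19.9 CPM with most of the difference in the last group, while Chrnd lies between 13.7 and 14.7 CPM.

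The remaining 3 cells can only be given singly. The 2 slow cells had 14.6 CPM of Chrne from 7 counts and 39.7 CPM from 4 counts, and the fast 2B cell had 35.0 CPM from 9 counts. Colq was 56.4 CPM in the first slow cell, 79.5 CPM in the second and 132 CPM (limits 91.6 to 185) in the fast 2B cell. That cell was the highest of all 171 in Colq, and it also had 152 CPM of Lrp4. Chrng was at 0 in all 3 cells.

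The adult subunit outnumbered the fetal one in these fibers. Chrne had 2658 counts and Chrng 27, so that Chrne made up 98.99% (98.5 to 99.3) of their sum. The ratio was 98.4-fold (67.5 to 150) in counts and 242-fold (166 to 369) per kilobase of exon. On the single lanes the ratio in counts was 55.3-fold on lane 1 and 222-fold on lane 2, both outside those limits. The share was 99.03% in fast 2X, 98.71% in fast 2A, 98.22% on lane 1 and 99.55% on lane 2, where 20 and 7 of the Chrng counts lay. Of the 20 on lane 1, 12 came from plate 706, so the lane difference rested largely on that plate. No stretch of 66 bases, the read length, was shared by the transcripts of Chrne and Chrng. Chrng lies 4586 bases downstream of Chrnd on the same strand.

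Chrng was counted in 19 of 171 cells (11.1%, limits 6.82 to 16.8), as 1 count in 13 cells, 2 counts in 5 cells and 4 counts in 1 cell. All 19 cells held more Chrne, from 5 to 85 counts with a median of 31, and no kept cell had more Chrng than Chrne. They were 16 fast 2X and 3 fast 2A cells, and they were deeper than the rest, with a median of 458610 counts against 203058.5. Of 11 other acetylcholine receptor subunits, listed as neuronal, 9 were found in more cells than Chrng, from 21 to 112. Chrna2 and Chrna6, named after their values were seen, were found in 13 and 10 cells. Plate 706, which was part of lane 1, held 12 of the 27 Chrng counts, at 2.06 CPM (1.07 to 3.60), where the other 7 plates had from 0 to 0.748 CPM. Without that plate, left out after the data were seen, Chrng stood at 0.325 CPM and Chrne was 155-fold higher in counts (93.98 to 278).

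**Figure D5:**
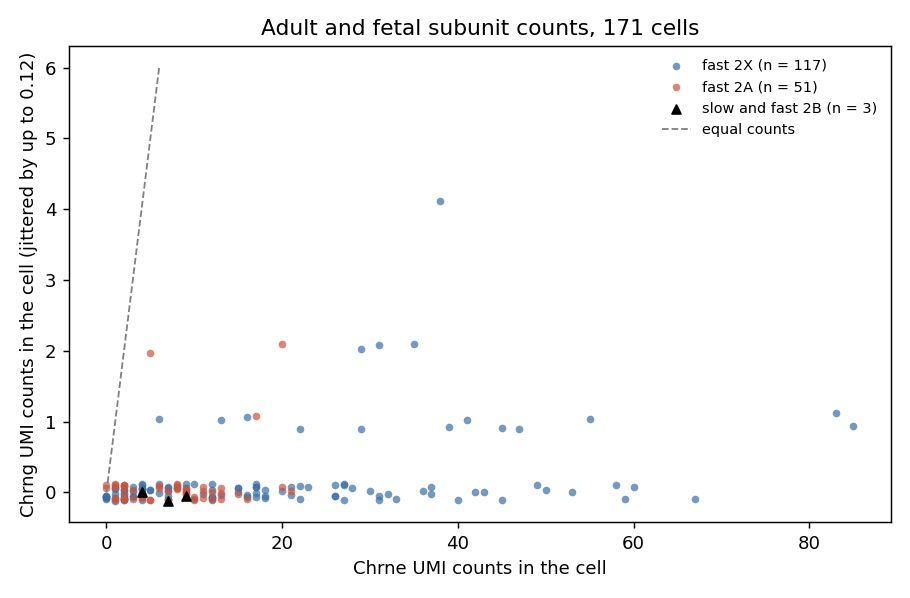
UMI counts of Chrng against Chrne in each of 171 cells, with Chrng jittered by up to 0.12; the dashed line marks equal counts. Chrng reaches 4 counts at most, the 19 cells with Chrng lie right of the line, and Chrne reaches 85 counts.

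The members varied largely apart from each other. Over the 171 cells, the Spearman correlation of per-cell CPM had a median of 0.10 over the 36 pairs of 9 members, from -0.15 between Rapsn and Lrp4 to 0.27 between Chrne and Ache. The pairs share each cell's total, and sparse counts lower such values. Of 11411 genes found in most cells, those nearest to Chrne were Pygm, muscle glycogen phosphorylase (0.57), Ckm, muscle creatine kinase (0.57), and Ctxn3 (0.56), and within the 117 fast 2X cells these values were 0.52, 0.45 and 0.44. All were lower in fast 2A like Chrne, with log2 differences of -0.52, -0.59 and -0.62. Those nearest to Musk were Pde4d, a cAMP phosphodiesterase (0.50), Msi2 (0.50) and Slc8a1, a sodium-calcium exchanger (0.44), and Musk itself had a correlation of 0.41 with depth. For Chrna1 they were Tsc22d3 (0.41), Psmd8 (0.39) and Rtn4 (0.38), and for Ache Timm23 (0.43), Gm19782 (0.42) and Eya4 (0.42). The nearest genes of the other 5 members, Raet1e, Ebag9, Hfe2, Gm6185 and Scn4b, had values from 0.35 to 0.40.

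Neighbouring genes could bear on some values, because whether the counting used strand is not given in the sources used here. Ufsp1, which begins 162 bases past Ache, had 2812 counts against 1392 of Ache and was also lower in fast 2A, at -0.63 (-0.78 to -0.48). The span of Gm42456, introns included, covers 794 exon bases of Ache, and Gm42456 had 203 counts at -0.86. Likewise the span of Gm13778 covers 484 exon bases of Rapsn, and Gm13778 had 112 counts. The span of Gm49387, introns included, covers 1406 exon bases of Colq, and Gm49387 had 335 counts. Of the 66-base stretches of Colq transcripts, 3.68% recur in those of Gm49387. 4930544D05Rik, which overlaps Chrne, had 6 counts and no shared exon base, and Mink1, 399 bases from Chrne, was at -0.44 with 748 counts. Chrnb1 lies 12 bases from Zbtb4, which had 2423 counts and was at -0.09. In Chrna1, 1.81% of the stretches recur in other genes. How far reads crossed between these genes was not tested.

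Other genes of the postsynaptic apparatus, a list of 30, were all present with at least 100 counts. In fast 2A against fast 2X 0 of 30 passed 2-fold, where 1.23% of all genes were higher and 4.58% lower, and their median difference was -0.03. The most counted were Ank3, a scaffold of sodium channels, at 411 CPM, Dag1, which encodes dystroglycan, at 219 CPM, and Dtna, encoding dystrobrevin, at 204 CPM, each found in all 171 cells. Of these, Dtna was at 0.22 and Ank3 at -0.16 between the classes. The list's median CV was 0.592 and 21 of 30 lay below the median of all genes. Among genes of glycosylation that are mutated in congenital myasthenia, 4 of 5 had at least 100 counts and 0 of 4 passed 2-fold, and Gfpt1 was the most counted at 18.5 CPM.

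Genes that rise after denervation were examined because Chrng is one of the best known of them. Of 13 in the table, 2 were at least 2-fold higher in fast 2A and 0 at least 2-fold lower, where 1.23% and 4.58% of all genes were. These were Myh3, the embryonic myosin, at 77.0 against 15.5 CPM, where reads shared with other myosin genes were not tested, and Sln, an inhibitor of the calcium pump, at 8.99 against 3.32 CPM. The most counted were Trim63 at 394 CPM, Fbxo32 at 211 CPM and Hdac4 at 197 CPM, all at log2 differences between -0.22 and 0.13, and Runx1 at 94.8 CPM was at 0.34. Among the E-box factors, named after their values were seen, Myod1 was 24.4 CPM in fast 2A and 46.7 CPM in fast 2X, a log2 difference of -0.94 (-1.12 to -0.76), and Myog was 6.21 and 3.78 CPM, a difference of 0.72 (0.30 to 1.13).

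The 592 cells left out by the filters had a lower share of junction transcripts, with 8 of 9 members at least 2-fold lower, where 36.2% of 17054 genes were. The median difference on the log2 scale of left-out over kept was -1.53, from -1.85 for Chrne to -0.59 for Colq. The myofiber genes differed by a median of -1.50, about as much as the members, whereas the medians of the endothelial, axon and Schwann cell lists were 1.53, 0.51 and 0.39, higher in the left-out cells. Mitochondrial genes held 52.5% of the summed counts of the left-out cells and 5.99% of those of the kept cells, and without them 0 of 9 members passed 2-fold, against 5.39% of genes that were lower, with a median of -0.55 where all genes had 0.34. On that scale Chrne was 29.8 against 54.5 CPM, Musk 123 against 170.3 CPM and Colq 43.6 against 33.1 CPM, so that Colq was higher in the left-out cells. Summed over the 9 members and without mitochondrial genes, the 90 left-out fragments had 384 CPM, the 502 left-out whole myofibers 431 CPM and the kept cells 599 CPM. At least 1 member was counted in 77 of the 90 fragments. Chrng had 9 counts in 7 left-out cells and Chrne 221 counts in 159, a Chrne share of 96.1% (92.7 to 98.2), and 5 left-out cells had more Chrng than Chrne. In the left-out cells that had under 20% mitochondrial counts, the 9 members summed differed from the kept cells by -0.15, with limits from -0.34 to 0.04 that held 0.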

How the data were processed

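UMI counts per gene and cell were measured in single FDB myofibers of 1 mouse. The authors mapped reads with STAR 2.5.4b to GRCm38 with spike-in sequences, counted UMIs with featureCounts within zUMIs, and deposited raw, unnormalized UMI counts for 763 cells beside other lines that describe each cell. The submitters' processing notes also name Cell Ranger 3.1.0. Lane and fragment were taken from those lines, and what is called plate here is their index label. From these counts, summed CPM with exact Poisson limits, shares with Clopper-Pearson limits, log2 ratios with conditional binomial limits, and expected detection after hypergeometric thinning were computed in Python 3.11.15 with scipy 1.17.1, and tested on simulated data. Ratios and spread were computed for genes with at least 100 summed counts. Limits cover counting error only. Members and lists were chosen with earlier results of these data known. Apart from the members, genes were named as the 4 most counted of each list, list genes past 2-fold between classes, the nearest by correlation, and neighbours in GENCODE M21, and a few of these are not reported here. Alternatives were other cell filters, each lane alone, other scalings and leaving out top cells. No p-value was computed, because cells of 1 mouse are not replicates.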

Additional observations from a re-analysis of the deposited data

How the results depend on the processing

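No paired analysis was possible because the lanes are sequencing lanes of 1 mouse and no result comes from a test. The number of members found in most cells stayed within 1.5 times under the alternatives run, at 7 to 9 of 9, as did the members' spread, with 4 to 7 of 9 below the median of genes with like counts. In fast 2A against fast 2X, Chrne was lower under every alternative run. With 1 lane left out its log2 difference ranged from -1.01 to -0.62 and that of the 9 members summed, -0.26 in all cells, from -0.28 to -0.21. With the mean of per-cell CPM these values were -0.60 and -0.20, and with TMM factors the sum was -0.15. With at least 500 counts per gene, 0.789% of genes were at least 2-fold higher in fast 2A and 1.75% at least 2-fold lower. The Chrne share of Chrne and Chrng counts ranged from 98.22% to 99.55% with 1 lane left out and was 99.36% without plate 706. For left-out over kept cells the sum of the 9 members was -1.49 and changed with the cells and the totals, to -0.51 without mitochondrial genes, -1.40 for left-out cells with over 5000 genes, -1.12 with the mean of per-cell CPM and -0.15 (limits -0.34 to 0.04) for left-out cells under 20% mitochondrial counts. Among the latter, Musk was at 0.18 and Lrp4 at 0.049, opposite in sign to their values over all left-out cells, and their limits held 0. The cause was not tested. Depth limits Chrng and Chrnd most, at 1.91 and 48.4 expected cells after thinning. The filters over 3000 genes and under 10% mitochondrial counts for the class comparison, the leaving out of non-muscle-marker cells or fragments, the CV and its comparison with genes of like counts, the Myh2 share groups, plates left out in turn, and lanes for left-out cells were added after seeing the data.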

Other observations

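Neuronal nicotinic subunits and genes of the fiber ends were also represented. Of 11 neuronal nicotinic subunits, 4 had at least 100 counts: Chrna9 was found in 112 cells at 9.34 CPM, Chrna7 in 86 cells, Chrna10 in 79 cells and Chrnb4 in 37 cells. Chrnb4 was at least 2-fold lower in fast 2A, at 0.756 against 2.48 CPM, from 9 and 97 counts. Genes of the myotendinous junction were found in most cells, and 0 of 5 passed 2-fold between the classes, where 1.23% of all genes were higher in fast 2A and 4.58% lower. Col22a1, a collagen of that junction, was found in 169 cells at 102 CPM with a CV of 0.299, Ankrd1 in 159 cells, Tigd4 in 149 and Slc24a2 in 143.

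Markers of other cells varied in evenness. The median CV was 1.88 over the Schwann cell genes with at least 100 counts, 2.83 over smooth muscle genes, 1.94 over fibroblast genes, 1.34 over macrophage genes, 1.16 over endothelial genes, 0.837 over axon genes, 0.834 over satellite cell genes and 0.302 over the far more counted myofiber genes, where all genes had a median of 0.684 and quartiles of 0.448 and 1.04. The axon and satellite cell lists thus lay within the quartiles of all genes. Of the axon genes with at least 100 counts, Chat, the enzyme that makes acetylcholine, was 1.18 CPM in fast 2A and 3.47 CPM in fast 2X. Syt1 and Syt2, synaptic vesicle genes of the nerve terminal, were found in 131 and 127 cells at 14.7 and 13.2 CPM, with log2 differences of 0.09 and 0.24 between the classes, and the summed axon markers were 35.4 CPM in fast 2A and 35.3 CPM in fast 2X. Acta2, Myh11, Tagln, Cnn1, Emcn and Cd163 were also at least 2-fold lower in fast 2A, with log2 differences from -1.38 to -1.01 in summed CPM. The highest cell held 33.1% of the Acta2 counts and 23.8% of those of Myh11, and their median cells were nearly level, at 3.60 and 3.58 CPM for Acta2 and 4.84 and 5.17 CPM for Myh11 in fast 2A and fast 2X. Of the myofiber genes, Actn3 was lower at -1.74, and Myh1 and Myh2, which set the classes, at -1.95 and 1.39.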
